A study of Mus musculus with 5 samples.

Results

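Arid5a and 8 other regulators of cytokine mRNA stability were followed in whole colon after injection of an IL-11 receptor agonist. The members, chosen by their place in this pathway with the measured log2 difference between NT-3N and Control in view, were Arid5a, Zc3h12a, Zc3h12c, Rc3h1, Rc3h2, Zfp36, Zfp36l1, Zfp36l2 and Elavl1, and all of their probes on the array were taken, which gave 13 of 56605 probes. These 9 genes were among 17942 features with a gene symbol, of 32917 tested. Single-colour Agilent arrays were hybridised with Cy3-labelled colon RNA from 5 wild-type mice of strain C57BL/B6, 8 weeks old in the study's legend, 1 per array. The Control group held 2 mice, described as untreated, with no vehicle injection named. The NT-3N group held 3 mice whose colon was taken 3 hr after an intravenous dose of NT-3N, a modified human IL-11. The dose was 10 mg in the series description and 10 μg in the methods, so its unit is not settled here. The set was put together with the difference between these groups already known, so the values of its members are a description, and the fit over all features is no independent test of them.

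IL-11 belongs to the IL-6 family and acts through gp130, a receptor subunit the family shares, and its own receptor chain on the transcription factor STAT3. Messages of IL-6 and other cytokines are short-lived. AU-rich elements and stem-loops in the untranslated region after their coding sequence are bound by proteins that lead to decay. Zfp36 (tristetraprolin) and its paralogs Zfp36l1 and Zfp36l2 bind AU-rich elements and recruit the CCR4-NOT deadenylase. Zc3h12a (Regnase-1) and Zc3h12c (Regnase-3) are endonucleases that cut at stem-loops, and Rc3h1 and Rc3h2 (Roquin-1 and Roquin-2) bind stem-loops and recruit deadenylases. Arid5a and Elavl1 (HuR) act the other way: Arid5a binds the Il6 message and counters Regnase-1, and HuR binds AU-rich elements and slows decay.

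On each array 70.6% to 73.0% of probes passed the scanner's test of lying well above background, and all 13 member probes passed it on all 5 arrays. No probe was saturated. Epithelial and smooth muscle markers of colon, 9 and 5 genes, were all well above background on all 5 arrays. Since whole colon is a mixture, fewer cells of a type and less RNA per cell cannot be told apart. The 2 Control arrays correlated at 0.984 across features, which are not independent replicates, below the 0.992 between NT-3N replicates 2 and 3, and Control replicate 2 was closer to each NT-3N array, at 0.986 to 0.989, than to Control replicate 1. Each array is labelled as a separate sample, and standard errors and p-values measure the spread between these 5 samples only.

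Promoter sequences were available in the RefSeq table of GRCm38.p6 for 8 of the 9 genes, as 9 windows from 250 bases before to 50 after a gene start. Those of Arid5a and Zfp36 are shown. Arid5a was the member with the largest difference between the groups, and Zfp36 was the member whose window held the STAT-type motif TTCNNNGAA. The Arid5a window is at chr1:36307483-36307782 on the + strand, and the Zfp36 window at chr7:28379179-28379478 on the - strand. Capitals mark the STAT-type motif.
Arid5a: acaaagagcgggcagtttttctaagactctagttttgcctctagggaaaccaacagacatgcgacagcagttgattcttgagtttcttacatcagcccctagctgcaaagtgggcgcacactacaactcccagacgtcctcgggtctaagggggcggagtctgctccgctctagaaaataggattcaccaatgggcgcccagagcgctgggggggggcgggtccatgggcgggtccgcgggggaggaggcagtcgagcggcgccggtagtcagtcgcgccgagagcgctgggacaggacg
Zfp36: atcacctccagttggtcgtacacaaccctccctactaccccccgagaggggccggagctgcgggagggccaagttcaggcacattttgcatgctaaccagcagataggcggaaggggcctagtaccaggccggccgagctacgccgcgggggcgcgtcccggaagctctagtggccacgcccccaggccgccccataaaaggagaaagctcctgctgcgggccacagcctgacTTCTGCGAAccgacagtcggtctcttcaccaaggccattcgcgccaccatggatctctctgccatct
The motif in Zfp36 begins 17 bases before the start, at position -17. It was held by 1 of the 9 member windows and by 8.3% of the 32851 windows in the table. The AP-1-type motif TGANTCA was held by the windows of Rc3h1 and Zfp36l1, at positions -133 and -129, which is 2 of 9 windows against 7.81% in the table. Both motifs read the same on the 2 strands and overlapped in no member window. The Arid5a window held neither motif, which says only that these letters are not in these 300 bases.

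Arid5a was higher in NT-3N on both of its probes. On the brightest probe, which represents the gene in the fit, the log2 signal was 9.95 and 9.84 on the Control arrays and 10.95, 11.15 and 11.08 on the NT-3N arrays. The 3 NT-3N arrays lay above both Control arrays by about a doubling of signal. The means were 9.89 ± 0.078 (SD, n = 2) and 11.06 ± 0.10 (SD, n = 3), which gave a log2 difference of 1.16 with a standard error of 0.10, or 2.24-fold. On the second Arid5a probe, which carries another RefSeq accession of the gene, the log2 signal was 6.87 and 6.53 in Control and 7.55, 7.85 and 7.67 in NT-3N, a difference of 0.99 with a standard error of 0.16. The groups did not overlap on either probe, and NT-3N replicate 2 was the highest array on both.

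In the limma fit over all features, Arid5a was the 1 member called at an adjusted p under 0.05, where 47 of 32917 features or 0.143% were called, 0.125% higher and 0.0182% lower in NT-3N. The set was chosen with this difference known, so the call is no evidence and nothing is read from the count. As a limit on it, the call was lost without Control replicate 1, Control replicate 2, NT-3N replicate 2 or NT-3N replicate 3, among 8 of 17 alternatives. Among these 8, the replicate block gave the same difference as leaving out NT-3N replicate 3, so they are not separate checks. The size of the difference varied from 1.08 with the mean of its probes to 1.21 with array quality weights, and from 1.11 to 1.22 without each array in turn.

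**Figure D1:**
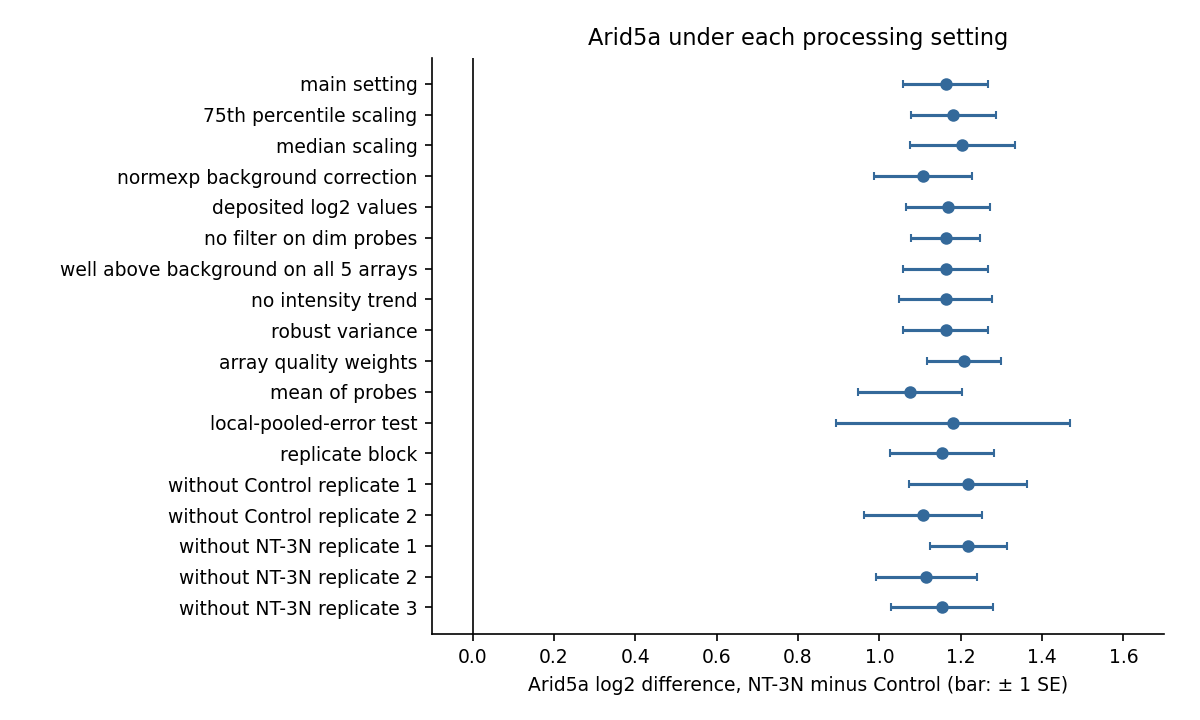
Log2 difference of Arid5a between NT-3N and Control on the x axis under the main setting and 17 alternatives on the y axis, with bars of 1 standard error. All 18 differences lie between 1.08 and 1.22.

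Elavl1, the other member that stabilises messages, had nearly the same signal in both groups. It stood at 13.34 and 13.33 in Control and at 13.25, 13.27 and 13.39 in NT-3N, and the NT-3N arrays lay on both sides of the Control arrays. Its log2 difference was -0.037 with a standard error of 0.078.

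Neither Regnase gene was separated between the groups. Zc3h12a, the endonuclease that Arid5a counters on the Il6 message, had a log2 signal of 7.06 and 7.48 in Control and 7.11, 7.22 and 7.37 in NT-3N. All 3 NT-3N arrays thus fell between the 2 Control arrays, and the difference was -0.034 with a standard error of 0.18. Its sign depended on which Control array was used, with -0.25 without Control replicate 1 and 0.18 without Control replicate 2. Zc3h12c had 2 probes, with differences of 0.093 and 0.17 and standard errors of 0.19 and 0.30. On the brightest of these the signal was 6.96 and 6.78 in Control and 6.70, 6.98 and 7.21 in NT-3N, with overlap. On the second Zc3h12c probe the signal ran from 5.22 to 5.61 in Control and from 5.18 to 6.03 in NT-3N, also with overlap.

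The Roquin genes differed by little. Rc3h1 was at 11.41 and 11.26 in Control and 11.36, 11.25 and 11.32 in NT-3N, with a difference of -0.025 and a standard error of 0.093. Rc3h2 was slightly lower in NT-3N on both probes. Its brightest probe gave 10.86 and 10.83 in Control and 10.68, 10.64 and 10.65 in NT-3N, a difference of -0.19 with a standard error of 0.085, or 0.878-fold. Its second probe gave 9.93 and 10.04 in Control and 9.92, 9.85 and 9.83 in NT-3N, a difference of -0.12. The arrays of the groups did not overlap on either Rc3h2 probe, but on the second the gap between NT-3N replicate 1 and Control replicate 1 was within the SD of the Control arrays, 0.081.

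Of the Zfp36 family, Zfp36l1 had probes that differed in direction. Zfp36 was at 12.13 and 11.84 in Control and at 12.43, 12.26 and 12.02 in NT-3N, where replicate 3 lay between the Control arrays. Its difference was 0.25 with a standard error of 0.15. Zfp36l1 was higher on its brightest probe, at 13.46 and 13.54 in Control and 13.75, 13.95 and 13.89 in NT-3N, with no overlap and a difference of 0.36 with a standard error of 0.087. On its second probe it was at 10.58 and 10.33 in Control and 10.44, 10.18 and 10.00 in NT-3N, a difference of -0.24 with a standard error of 0.16. Both probes carry the same RefSeq accession, so no single direction is given for Zfp36l1, and with the mean of its probes the difference was 0.059. Zfp36l2 was at 13.75 and 13.50 in Control and 13.70, 13.91 and 13.74 in NT-3N, with overlap and a difference of 0.15 with a standard error of 0.11.

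**Figure D2:**
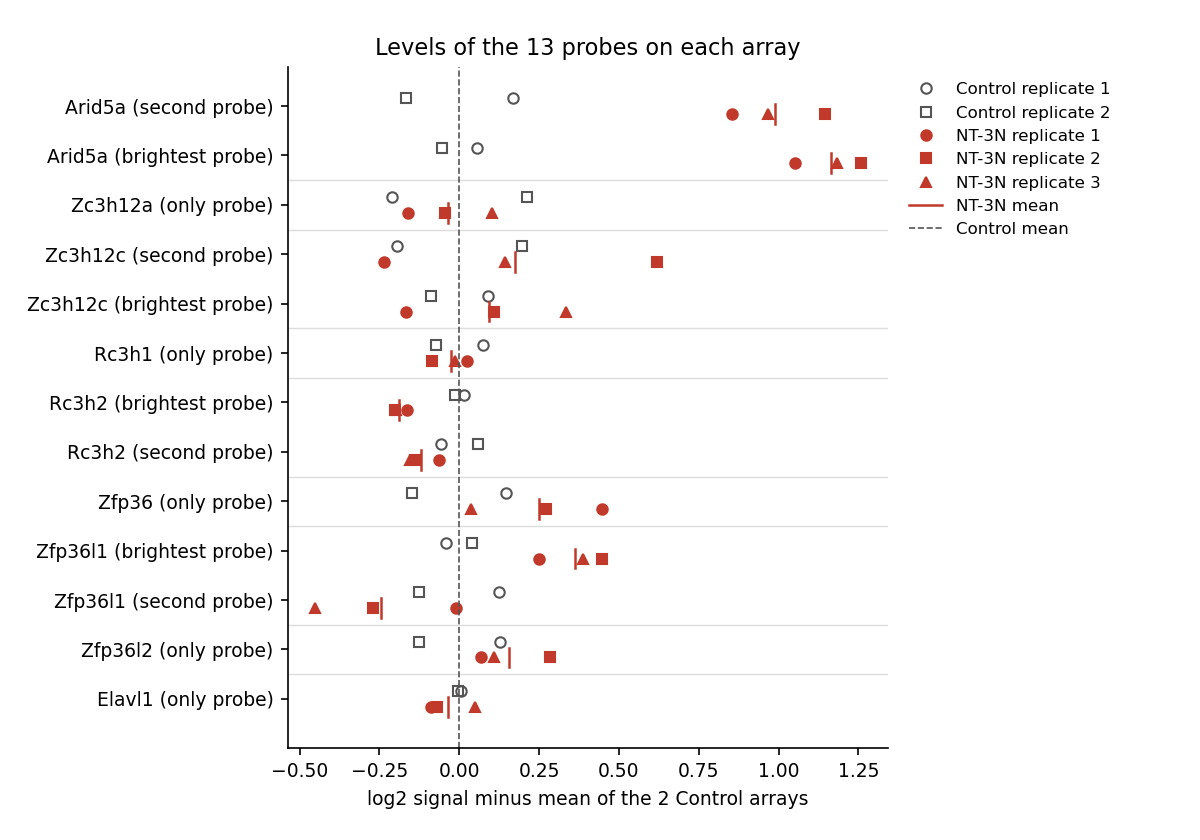
Log2 signal of each of the 13 member probes on each array (x axis, log2 units relative to the mean of the 2 Control arrays) by probe (y axis); open grey symbols are Control arrays, filled red symbols NT-3N arrays, and the vertical red stroke is the NT-3N mean. Only the 2 Arid5a probes have every NT-3N array more than 0.5 above the Control mean, and the 2 Zfp36l1 probes point in opposite directions.

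By brightest probe, the groups did not overlap for Arid5a and Zfp36l1, both higher in NT-3N, and for Rc3h2, lower in NT-3N. Over all features 28.4% did not overlap, 13.5% with NT-3N higher and 14.8% with NT-3N lower, so 3 of 9 is close to the background. The median log2 difference was 0.093 over the 9 members and -0.019 over all features. With standard errors of 0.078 to 0.19 the 8 members other than Arid5a cannot be said to be the same in both groups. Their differences, from -0.19 to 0.36, lay within the 5th to 95th percentile of all features, which ran from -0.53 to 0.50.

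The messages that these proteins are known to act on were listed from general knowledge of published targets, with earlier results of these data known, so the lists are not independent of them. All 7 transcripts reported to be bound by Arid5a were tested. Of the 5 that were well above background on all 5 arrays, 4 had a positive and 1 a negative log2 difference, with a median of 0.19 beside -0.016 over all features measured on all 5 arrays. Over all 7 the median was 0.74, but Il6 and Cxcl1 enter it through the NT-3N arrays, so it is not used. The restriction to genes measured on all 5 arrays was chosen after the values were seen. In limma 1 of the 7 rose at an adjusted p under 0.05 and 0 fell, beside 0.125% and 0.0182% of all features. Nothing is read from this count. The transcript that rose was Stat3, which encodes the main transcription factor of the IL-6 family. Its log2 signal was 12.84 and 12.80 in Control and 13.61, 13.58 and 13.48 in NT-3N, a difference of 0.74 (SE 0.077), and limma gave an adjusted p of 0.043. The call for Stat3 was kept in 9 of 17 alternatives, with adjusted p from 0.0068 to 0.49, and was lost without either Control array, without NT-3N replicate 2 and without NT-3N replicate 3. A second Stat3 probe differed by 0.88. Cxcl5, a neutrophil-attracting chemokine, was at 4.79 and 4.45 in Control and 5.25, 6.31 and 5.97 in NT-3N, with a limma adjusted p of 0.36. Nfkbiz, an inflammatory co-regulator of transcription, and Tnfrsf4, the T cell costimulatory receptor OX40, had differences of 0.19 and 0.16 with adjusted p of 0.71 and 0.77 in limma, and a second Nfkbiz probe differed by -0.23.

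Il6 and Cxcl1 were named after their values were seen, and both passed the filter on dim probes by their NT-3N arrays, so their values are a description. Il6, the best known target of Arid5a, was not well above background on either Control array and was well above it on 2 of the 3 NT-3N arrays. Its log2 signal was 1.40 and 1.35 in Control, and 3.77, 5.41 and 5.24 in NT-3N. Set against the lowest signal of any probe well above background on each Control array, the mean NT-3N signal of Il6 was 2.72-fold higher. That mean takes in NT-3N replicate 1, where Il6 did not pass, and the floor is not specific to this probe. The fold is therefore no strict lower bound. Cxcl1, a chemokine for neutrophils, was measured above background on all 3 NT-3N arrays but on 1 of 2 in Control. Its log2 signal was 2.37 and 3.91 in Control and 7.0, 6.31 and 5.90 in NT-3N.

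Of 26 transcripts reported to be bound by the Zfp36, Regnase or Roquin proteins, 19 were tested; Il2, Il17a, Il23a, Ifng, Csf2, Csf3 and Cxcl2 did not pass the filter on dim probes. Of the 19, 4 were also on the Arid5a list. Of the 15 that were well above background on all 5 arrays, 9 had positive and 6 negative differences, with a median of 0.16. In limma 0 of the 19 were called, and 3 higher and 1 lower of the 15 had an unadjusted p under 0.05 (over all features 4.95% higher and 4.67% lower did). The local-pooled-error test called 2 of the 19, Il6 and Cxcl1, to which the limit given above applies. Myc, a driver of cell growth, was at 8.51 and 8.59 in Control and 9.13, 9.31 and 9.61 in NT-3N, with a limma adjusted p of 0.20, but a second Myc probe differed by -0.033. Ccl2, a monocyte chemokine, differed by 0.70 with Control replicate 1 well below the other 4 arrays, and Ptgs2, which encodes cyclooxygenase-2, by -0.52. Their adjusted p was 0.51 and 0.53 in limma.

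The decay machinery that these proteins recruit showed small differences. All 38 genes of deadenylation, decapping and the exosome were tested and were well above background on all 5 arrays, with a median log2 difference of 0.087. In limma 0 were called, and the local-pooled-error test called 0. At an unadjusted p under 0.05 limma had 4 higher and 0 lower of the 38, beside 4.95% and 4.67% of all features. The farthest from 0 was Dis3, a nuclease of the exosome, at 9.22 and 9.13 in Control and 9.53, 9.64 and 9.84 in NT-3N, with an adjusted p of 0.31 in limma. Parn and Pan2, both poly(A) nucleases, differed by 0.32 and 0.29, with adjusted p of 0.40 and 0.49 in limma. A second probe differed by 0.36 for Parn and by -0.0084 for Pan2.

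Of 17 genes listed as other mRNA-binding regulators, all tested, limma called 0 and the local-pooled-error test called 0. At an unadjusted p under 0.05 limma had 2 higher and 1 lower of the 17, beside 4.95% and 4.67% of all features. The median log2 difference of the 17 was -0.051. Arid5b was listed as the paralog of Arid5a, with no mRNA binding shown for it here. Arid5b was at 11.19 and 11.22 in Control and 11.98, 11.79 and 11.66 in NT-3N. The difference was 0.60 (SE 0.11), and limma gave an adjusted p of 0.18. A second Arid5b probe differed by 0.62. N4bp1, a relative of the Regnase nucleases, differed by -0.37 and the neuronal HuR relative Elavl3 by -0.45, with adjusted p of 0.36 and 0.65 in limma. The groups overlapped for Elavl3, and a second Elavl3 probe differed by -0.18.

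Of 14 kinases, phosphatases and proteases that act on the members, limma called 0 and the local-pooled-error test called 0. At an unadjusted p under 0.05 limma had 1 higher and 0 lower of the 14, beside 4.95% and 4.67% of all features. The median log2 difference of the 14 was -0.039. Dusp1, a phosphatase that switches off p38 and so acts on tristetraprolin, was at 11.19 and 10.90 in Control and 11.42, 11.67 and 11.71 in NT-3N, a difference of 0.55 with a limma adjusted p of 0.29. Mapkapk3 and Ikbke differed by 0.21 and -0.19, with adjusted p of 0.59 and 0.68 in limma. A second probe differed by 0.16 for Mapkapk3 and by -0.34 for Ikbke.

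**Figure D3:**
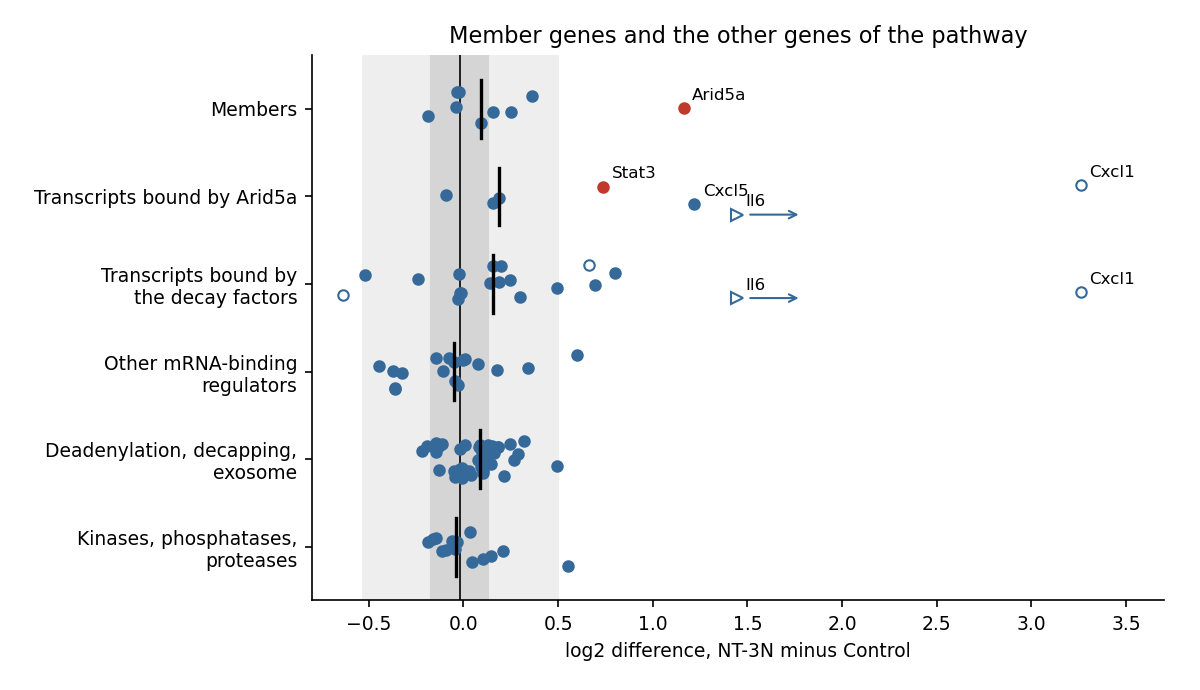
Log2 difference between NT-3N and Control (x axis) by list (y axis), 1 point per gene. The rows hold the 9 members by brightest probe and the tested genes of 5 lists. Red points were called at an adjusted p under 0.05 in limma. Open symbols mark genes not well above background on all 5 arrays. Triangles with arrows set Il6 against the lowest passing signal of any probe on each Control array, which is no strict lower bound. Black strokes are list medians over genes well above background on all 5 arrays. Bands span the 5th to 95th and 25th to 75th percentiles of all 32917 features, with their median as a line. Arid5a at 1.16 and Stat3 at 0.74 are the called genes, while the deadenylation, decapping and exosome genes lie between -0.22 and 0.50.

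The genes closest to Arid5a over the 5 arrays were sought among 16734 genes well above background on every array, by the Euclidean distance between log2 profiles each centred on its own mean. The 5 nearest were Ccl11 at a distance of 0.078, Bicc1 at 0.096, Cdr2l at 0.14, Adamts1 at 0.18 and Batf3 at 0.22. Ccl11 encodes the eosinophil chemokine eotaxin, Bicc1 an RNA-binding protein, Adamts1 a matrix protease and Batf3 an AP-1 family transcription factor. Ccl11 was at 8.83 and 8.76 in Control and 9.81, 10.00 and 9.89 in NT-3N. The log2 differences of the 5 ranged from 0.99 to 1.13, beside 1.16 for Arid5a, and since they were found by their likeness to it they were not tested.

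**Figure D4:**
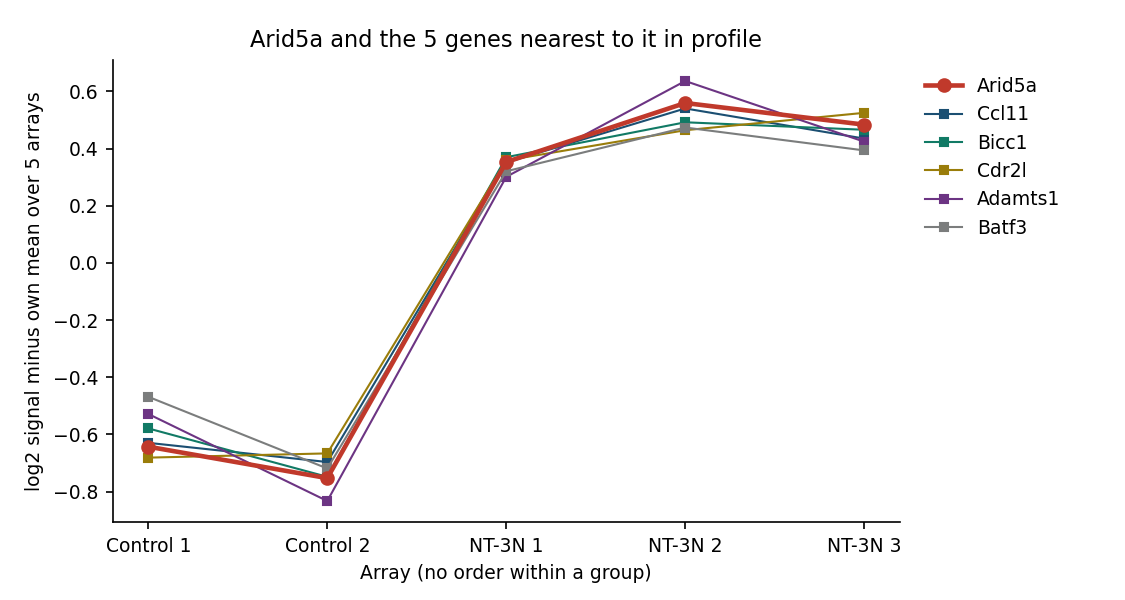
Log2 signal of Arid5a (thick red line) and of the 5 genes nearest to it in profile, each minus its own mean over the 5 arrays (y axis, log2 units), on each array (x axis); lines join the arrays for legibility only. All 6 genes are below their mean on both Control arrays and above it on all 3 NT-3N arrays.

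Markers of cell types are given beside these values. Each sum adds signals of different probes, so the brightest probes weigh most in it. Of 9 epithelial markers 2 were higher and 7 lower, and 0 were called in limma. Their sums overlapped, at 946554 to 952478 in Control and 855798 to 992046 in NT-3N. Sums of 4 liver markers also overlapped, at 1136 to 2914 in Control and 1291 to 1770 in NT-3N. The summed signal of 5 smooth muscle markers was 416913 and 435105 in Control and ranged from 311752 to 392056 in NT-3N, without overlap. All 5 had negative differences, with a median of -0.25 beside -0.019 over all features. For 4 of the 5 the NT-3N arrays lay below both Control arrays, beside 14.8% of all features. Limma called 0 of the 5, with 2 lower at an unadjusted p under 0.05, beside 4.67% of all features. Sums of 6 fibroblast markers (61364 to 68052 in Control, 54678 to 82821 in NT-3N), 6 macrophage markers (9593 to 10237 and 8183 to 11588) and 5 T cell markers (2985 to 3389 and 2732 to 3805) overlapped between the groups. All 5 B cell markers had positive differences and 0 were called in limma. Ms4a1, which encodes CD20, was at 4.95 and 6.53 in Control and at 9.54, 9.13 and 9.51 in NT-3N, low on both Control arrays with no overlap, a difference of 3.65 with an adjusted p of 0.059 in limma that passed the threshold in 7 of 17 alternatives. The sum of the 5 B cell markers was 4546 and 1057 in Control and 4300 to 5109 in NT-3N, with Control replicate 2 the lowest array. The 5 fat markers summed to 6051 and 18658 in Control and 2251 to 12725 in NT-3N. Of 6 neutrophil markers 4 were tested, since Ly6g was matched to no probe and Cxcr2 did not pass the filter. S100a8 and S100a9 were well above background on 0 of 2 Control and 3 of 3 NT-3N arrays. Both passed the filter by their NT-3N arrays, so their values are a description, and limma called neither (adjusted p 0.22 and 0.062). Against the lowest passing signal of any probe on each Control array they were 3.61-fold and 13.9-fold higher, no strict lower bound. Csf3r, the 1 neutrophil marker well above background on all 5 arrays, differed by -0.16. Its log2 signal was 16.25 and 16.23 in Control, on the same arrays where S100a8 and S100a9 did not pass. The neutrophil sum, 77021 to 78021 in Control and 64061 to 77478 in NT-3N, came almost wholly from Csf3r. Neither Csf3r nor this sum is therefore taken as a measure of neutrophils. Of 7 immediate early genes, the class to which Zfp36 belongs, 6 had positive differences and 0 were called in limma, with Egr1 at 1.87 and an adjusted p of 0.17, and their sums were 26297 to 28068 in Control and 28093 to 37955 in NT-3N. The part of these markers in the differences of the members was not tested.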

How the data were processed

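Gene expression was measured on 1-colour Agilent SurePrint G3 Mouse 8x60K arrays in whole colon of 2 Control and 3 NT-3N mice, grouped by the sample titles. Spots were read by the authors in Feature Extraction 11.0.1.1, and the deposited scanner files hold the intensity of each spot, background-subtracted and detrended but not scaled between arrays. A second deposited file gives the authors' log2 values of 37380 probes, which correlated at 0.99998 or more with the values used here and served as an alternative. Control spots and outlier-flagged spots (69 to 184 of 59305 per array) were left out, log2 of the processed signal was averaged over spots of a probe, and arrays were quantile-normalized, as in the methods of the study. Probes had to lie well above background on 2 or more arrays, with a value on both Control arrays and at least 2 NT-3N arrays. Accessions were matched to symbols in the RefSeq table of GRCm38.p6, which named 32994 of 56605 probes, and a gene was represented by its brightest probe. The file headers name the build mm9, so no probe coordinates are given. The level of a probe depends on its sequence, so levels are not compared between genes.

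NT-3N was set against Control in limma 3.58.1 under R 4.3.3 (lmFit, then eBayes with trend), two-sided, and p was adjusted by Benjamini-Hochberg across the 32917 features. In the study's methods the test is a local-pooled-error test, which was run as an alternative after its published description. Both were run on data simulated from the limma variance model, with no array effects. This served to check the code and says nothing on false calls in these data. Standard errors are those of the limma fit, and for second probes those of a fit with every probe. The arrays lay on 1 slide with 1 scan time. The number of arrays limits the precision, and exact permutation of 2 against 3 arrays could not reach p under 0.05. The members and lists were chosen with earlier results of these data known. Named genes were all members and, of each list, those called plus the 3 with the largest difference among the rest that were well above background on all 5 arrays. Alternatives changed scaling, background correction, input, filter, variance model, array weights, probe rule, test, block and each array left out.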

Additional observations from a re-analysis of the deposited data

How the results depend on the processing

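The 41 higher and 6 lower features called by limma became 2 and 0 without a filter on dim probes, 2 and 0 without the intensity trend, 128 and 49 with array quality weights and 192 and 156 with the local-pooled-error test. The lower calls were 11 with the deposited log2 values, 13 with probes well above background on all 5 arrays and 15 with robust variance. Leaving out 1 array at a time gave 0 to 112 higher calls (112 without Control replicate 2, 68 without NT-3N replicate 1, 1 without NT-3N replicate 2, 0 without NT-3N replicate 3) and 0 to 16 lower calls (16 without NT-3N replicate 1, 0 without Control replicate 1, NT-3N replicate 2 or NT-3N replicate 3). The cause was not tested.

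Of the transcripts bound by Arid5a, 1 was called higher here, 0 without a filter, without the intensity trend and with probes averaged, 2 with array weights and 3 with the local-pooled-error test, and 0 to 2 without each array in turn (2 without NT-3N replicate 1). Of those bound by the decay factors, 0 higher became 1 with array weights and 2 with the local-pooled-error test, and 0 to 1 without each array. The counts of the other 3 lists stayed at 0 in all alternatives run.

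Replicate numbers were taken as names only, since the sample titles give no pairing. Same-numbered arrays deviated together weakly (r = 0.13 and 0.036 across features, 2 pairs). The deviations of the 2 Control arrays mirror each other, so the 2 values are not separate checks and cannot show that pairing is absent. The replicate block left 0 higher and 0 lower calls in limma, with 1138 and 1350 at an unadjusted p under 0.05. It left 0 transcripts bound by Arid5a called, and the log2 difference of Arid5a was 1.15. Replicate 3 is found in NT-3N only, so the block fits that array by itself. The block differences equal those without NT-3N replicate 3, so these alternatives are not separate checks. All arrays shared 1 slide and 1 scan time, so no such block could be run. Where a Control array is left out, the other is taken to have the spread of the NT-3N group.

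Among the members that were not called, differences changed sign in 4 of 17 alternatives for Rc3h1, in 2 for Zc3h12a and Zc3h12c and in 1 for Elavl1, and in 0 for Rc3h2, Zfp36, Zfp36l1 and Zfp36l2. For Zfp36l1 no alternative used the second probe alone, which differed by -0.24, and with the mean of its probes the difference was 0.059.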
